A study of Saccharomyces cerevisiae with 2 samples.

Results

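The respiratory chain of Saccharomyces cerevisiae is built from the products of 2 genomes, and its 36 nuclear genes examined here encode the subunits that are imported into the mitochondrion. They comprised the 4 genes of succinate dehydrogenase (complex II), 9 genes of the cytochrome bc1 complex (complex III), both genes of cytochrome c, 9 genes of cytochrome c oxidase (complex IV) and 12 genes of the ATP synthase. They were found as the nuclear MspI restriction fragments whose annotation names the gene as a whole word. This rule gave 87 fragments, of which 66 overlapped the gene, 18 named it as the nearest neighbour, and 3 named it only as an older name of another gene. Those 3, which belong to NUP42 (synonym RIP1) and SOR1 (synonym SDH1), were set apart. The remaining 84 fragments stood among 13593 nuclear fragments outside the ribosomal DNA (rDNA), and every one of the 36 genes had at least 1 of them.

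Electrons from succinate enter the chain at succinate dehydrogenase, pass through ubiquinone to the bc1 complex, and are carried by cytochrome c to cytochrome c oxidase, where oxygen is reduced. The proton gradient made on the way drives the ATP synthase. Yeast mitochondrial DNA (mtDNA) keeps the genes for cytochrome b (COB), the 3 core subunits of the oxidase (COX1, COX2 and COX3) and 3 subunits of the ATP synthase (ATP6, ATP8 and OLI1), whereas complex II and cytochrome c are wholly nuclear. Many of the nuclear genes are repressed in glucose, and the core subunits are needed for growth on glycerol and lactate.

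Genome Conformation Capture (GCC), in which crosslinked chromatin is cut, ligated and sequenced without enrichment, was performed on strain BY4741, a haploid S288C derivative with auxotrophic deletions. Cells were grown at 30 °C to an optical density of 0.6 in synthetic complete medium with glycerol lactate or with galactose as carbon source. Each medium is represented by 1 library, into which the authors had combined 2 biological replicates, so that no replicate error could be obtained and no test between the media was made. All intervals below are 95% counting intervals. The uniquely mapped tables held 3221104 counts in glycerol lactate and 2338837 in galactose. Pairs of mtDNA with mtDNA made up 259656 and 143256 of these counts, pairs of mtDNA with nuclear fragments 83910 and 26312, and pairs between nuclear chromosomes 181286 and 363827. The deletion of URA3 in BY4741 was visible in both libraries, where its 2 fragments had 0 or 1 count against medians of 433 and 328 counts per nuclear fragment.

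The layout of MspI sites differed strongly among the genes. For 20 of the 36 genes the annotation named a single fragment, and the other 16 had between 2 and 9, the most being those of ATP1, the alpha subunit of the F1 head. Each gene of cytochrome c oxidase was named by 1 fragment, which also overlapped at least 1 other named gene. COX9, for example, shared the 4443 bp of chromosome IV from 332424 to 336866 with BDF2, CBS1, IDP1 and PEX19. Of the 84 fragments, 33 overlapped another named gene, 47 such genes in all, so a count belongs to the fragment and not to the gene alone. Member fragments had a median length of 683 bp, against 568 bp for the other nuclear fragments, and ranged from 13 bp beside CYC1 to the 6316 bp that hold QCR9. Because a long fragment collects more ligations, every count is given over the mean of the other nuclear fragments in the same of 20 length classes. A value of 1 is therefore the level of nuclear fragments of like length.

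The 84 fragments had 671 counts with mtDNA in glycerol lactate and 208 in galactose. These were 1.19 (1.11 to 1.29) and 1.17 (1.01 to 1.33) times the level of their length classes. The direction was the opposite in the tables of all mapped sequences, which include reads that match more than 1 place, at 0.95 and 0.69. Per kilobase the order was the opposite in both media, with 6.39 counts for the members and 6.97 for all other fragments in glycerol lactate, and 1.98 and 2.19 in galactose. Counts with mtDNA were also read as a share of the counts with mtDNA and with other nuclear chromosomes together. In glycerol lactate this share was 18.6% (17.3 to 19.9) for the members and 18.8% for all other fragments. In galactose it was 3.96% (3.45 to 4.53) and 3.49%. Both intervals include the share of the other fragments. The intervals of the length-class values cover counting error only, and the genes themselves were spread far more widely. Over all 4646 named protein-coding genes found in the tables, which share fragments with each other, the central 90% of values ran from 0.53 to 1.68 in glycerol lactate and from 0.29 to 1.93 in galactose. The members' medians were 1.16 and 1.28, beside 1.03 and 1.02 over all genes. In glycerol lactate 23 of 36 members were above their length class, against 53.6% of all genes, and in galactose 26 of 36 against 51.5%. Values of at least 1.5 were reached by 10 members in glycerol lactate, against 11.1% of all genes, and by 10 in galactose, against 15.9%. At the other end, 3 members were at or below 1 divided by 1.5 in glycerol lactate, against 10.7%, and 5 in galactose, against 20.0%.

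**Figure D1:**
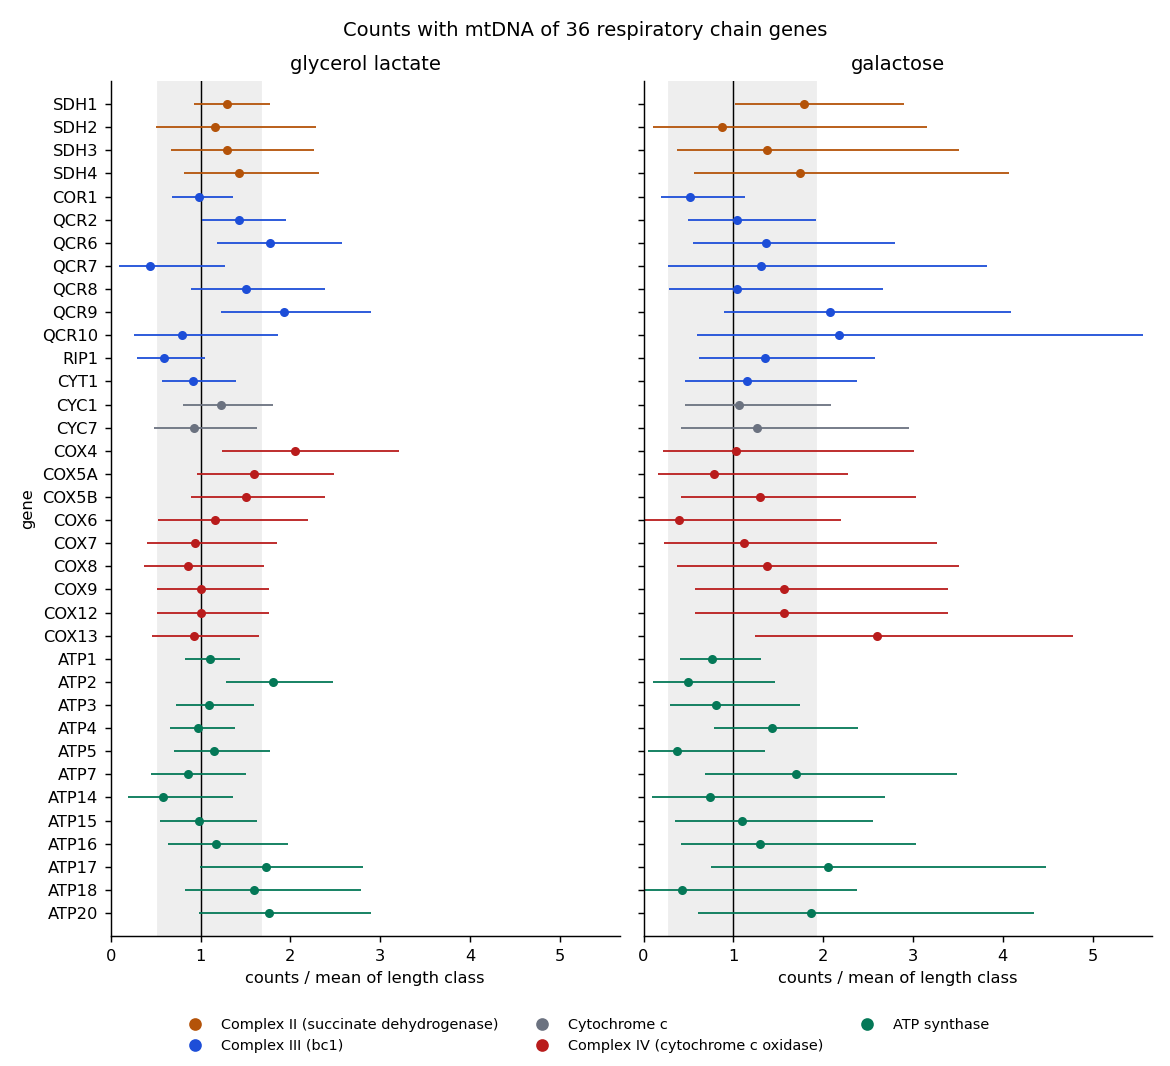
Counts with mtDNA of each of the 36 genes (rows, coloured by complex), divided by the mean of nuclear fragments of the same length class (x axis, ratio without unit), in glycerol lactate (left) and galactose (right). Bars are 95% Poisson counting intervals, the line marks 1, and the grey band holds the central 90% of 4646 nuclear genes. COX4 at 2.06 and QCR9 at 1.93 stood highest in glycerol lactate and COX13 at 2.60 in galactose, and most intervals cross 1.

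Few members stood high in both libraries. Of the 10 members at 1.5 or more in glycerol lactate, 3 were among the 10 of galactose, which is 30% of either list. That is close to the 27.8% of all 36 members that reached 1.5 in each medium. The 3 were QCR9, a small subunit of the bc1 complex, ATP17, the f subunit of the membrane part of the ATP synthase, and ATP20, its g subunit. Over all genes 132 were in both lists. They made up 25.6% of the 515 of glycerol lactate, where 15.9% of all genes reached 1.5 in galactose. Of the 741 of galactose they made up 17.8%, where 11.1% of all genes reached 1.5 in glycerol lactate. Across the 36 genes the 2 media had a rank correlation (Spearman) of -0.10, and across all 4646 genes 0.16. Genes had between 3 and 54 counts in glycerol lactate and between 1 and 16 in galactose. The counting interval excluded 1 for 5 members in glycerol lactate (COX4, QCR2, QCR6, QCR9 and ATP2), against 15.9% of all genes, and for 2 in galactose (COX13 and SDH1), against 6.72%. Both shares are close to those of all genes.

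Succinate dehydrogenase had 75 counts with mtDNA in glycerol lactate and 27 in galactose, or 1.31 (1.03 to 1.64) and 1.59 (1.05 to 2.31) times the length class. All 4 of its genes lay above 1 in glycerol lactate, against 53.6% of all genes, between SDH2 at 1.16, the iron-sulfur subunit, and SDH4 at 1.42, a membrane anchor. The counting interval of each of the 4 genes included 1 there. In galactose SDH1, the flavoprotein subunit, was highest of the 4 at 1.79 (1.02 to 2.90), and SDH2 was at 0.87 (0.11 to 3.15). SDH1 had 39 counts in glycerol lactate and 16 in galactose over its 5 fragments. In their order along chromosome XI from 167887 to 171658, the fragments had 13, 8, 1, 6 and 11 counts in glycerol lactate. In galactose they had 6, 4, 3, 1 and 2. The first of them also overlaps DBR1, and the last lies beside the gene.

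The bc1 complex as a whole was close to its length class, with 183 counts at 1.16 (1.00 to 1.34) in glycerol lactate and 58 at 1.14 (0.87 to 1.47) in galactose, but its genes were spread widely in glycerol lactate. QCR9 reached 1.93 (1.22 to 2.90) from 23 counts, and QCR6, the acidic hinge subunit, reached 1.78 (1.18 to 2.57) from 28. The core subunit gene QCR2 followed at 1.43 (1.01 to 1.95) from 39 counts. QCR7, a small subunit on the matrix side, was the lowest of all 36 genes at 0.44 (0.09 to 1.27), from 3 counts. RIP1, the Rieske iron-sulfur protein, was at 0.59 (0.29 to 1.05) from 11. In galactose both were above 1, at 1.31 and 1.36, from 3 and 9 counts. Of the 9 galactose counts of RIP1, 7 fell on a fragment of 54 bp inside the gene (chromosome V, 107769 to 107822), which had 1 count in glycerol lactate. COR1, the other core subunit, was at 0.98 in glycerol lactate and 0.52 (0.19 to 1.13) in galactose, from 35 and 6 counts. CYT1, cytochrome c1, was at 0.92 and 1.15.

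For cytochrome c there were 38 counts in glycerol lactate and 13 in galactose, at 1.12 (0.79 to 1.54) and 1.13 (0.60 to 1.94). CYC1 and CYC7 are paralogs, of which CYC1 makes most of the protein in aerobic cells and CYC7 encodes the minor isoform. CYC1 stood at 1.23 (0.81 to 1.81) in glycerol lactate and 1.06 (0.46 to 2.09) in galactose, from 26 and 8 counts. CYC7 stood at 0.93 (0.48 to 1.63) and 1.27 (0.41 to 2.96), from 12 and 5 counts. The intervals of the paralogs overlapped in both media.

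Cytochrome c oxidase had 116 counts with mtDNA in glycerol lactate and 41 in galactose, at 1.23 (1.02 to 1.48) and 1.35 (0.97 to 1.84). COX4, the zinc-binding subunit, had 19 counts in glycerol lactate, 2.06 (1.24 to 3.21) times its length class and the highest value of the 36 genes. It had 3 counts in galactose, at 1.03 (0.21 to 3.01). Its fragment, chromosome VII 149211 to 151372, also overlaps TPN1. COX13, which lies 1.33 kb away on the same chromosome and encodes a peripheral subunit, had the reverse order, with 11 counts at 0.92 (0.46 to 1.65) in glycerol lactate and 10 counts at 2.60 (1.25 to 4.78) in galactose. The paralogs COX5A and COX5B, the aerobic and the hypoxic isoform of subunit V, had nearly the same counts, 19 and 18 in glycerol lactate and 3 and 5 in galactose. COX8 was the lowest of the complex in glycerol lactate at 0.87 (0.37 to 1.71), and COX6 in galactose at 0.40 (0.01 to 2.20), from 1 count.

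The ATP synthase had 259 counts in glycerol lactate, at 1.18 (1.04 to 1.34), and 69 in galactose, at 1.00 (0.78 to 1.27). ATP2, the catalytic beta subunit of the F1 head, differed most between the libraries. Its 3 fragments had 15, 13 and 10 counts in glycerol lactate and 0, 0 and 3 in galactose, in their order along chromosome X from 647265 to 651066. That was 1.81 (1.28 to 2.48) times the length class in glycerol lactate and 0.50 (0.10 to 1.46) in galactose. The third fragment reaches into IBA57. ATP20 and ATP17 were at 1.76 and 1.73 in glycerol lactate and at 1.86 and 2.06 in galactose. ATP18, the i/j subunit, had 12 counts in glycerol lactate and 1 in galactose. ATP14, the h subunit, was the lowest of the complex in glycerol lactate at 0.59 (0.19 to 1.37). ATP1 had the most counts of any gene, 54 and 13, but also the most fragments, and was at 1.10 (0.83 to 1.44) and 0.76 (0.41 to 1.30).

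Next, the counts of the 2 libraries were set against each other. The members had 3.23 (2.76 to 3.79) times as many counts with mtDNA in glycerol lactate as in galactose. All other nuclear fragments had 3.19 (3.14 to 3.23) times as many. By complex the ratio lay between 2.78 (1.77 to 4.49) for succinate dehydrogenase and 3.75 (2.87 to 4.97) for the ATP synthase, and each of the 5 intervals includes 3.19. Against the library totals the members' ratio was 2.34, and against the between-chromosome counts of the same fragments 5.52. The first scaling changes the ratio of all fragments by the same factor. The between-chromosome counts themselves had a ratio of 0.58 for the members and 0.50 for all other nuclear fragments. On the second scale the members therefore lay below the other fragments. Pairs of mtDNA with mtDNA were 1.81 times as many in glycerol lactate. The counts were not corrected for the number of mtDNA copies per cell, and the part of that number in the ratios was not tested. Of the 22 members with at least 20 counts in both libraries together, ATP2 and ATP5 had a ratio of at least 2 times 3.19, and COX13 and RIP1 of at most 3.19 divided by 2. That is 2 of 22 in each direction, against 9.38% and 5.11% of all genes with as many counts. ATP2 had a ratio of 12.7 (4.02 to 64.1) and COX13 of 1.10 (0.42 to 2.89), and in only these 2 of the 22 genes did the counting interval exclude 3.19, against 5.29% of all such genes. ATP5, the OSCP subunit of the stator, had 20 and 2 counts, a ratio of 10.0 (2.43 to 88.2).

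**Figure D2:**
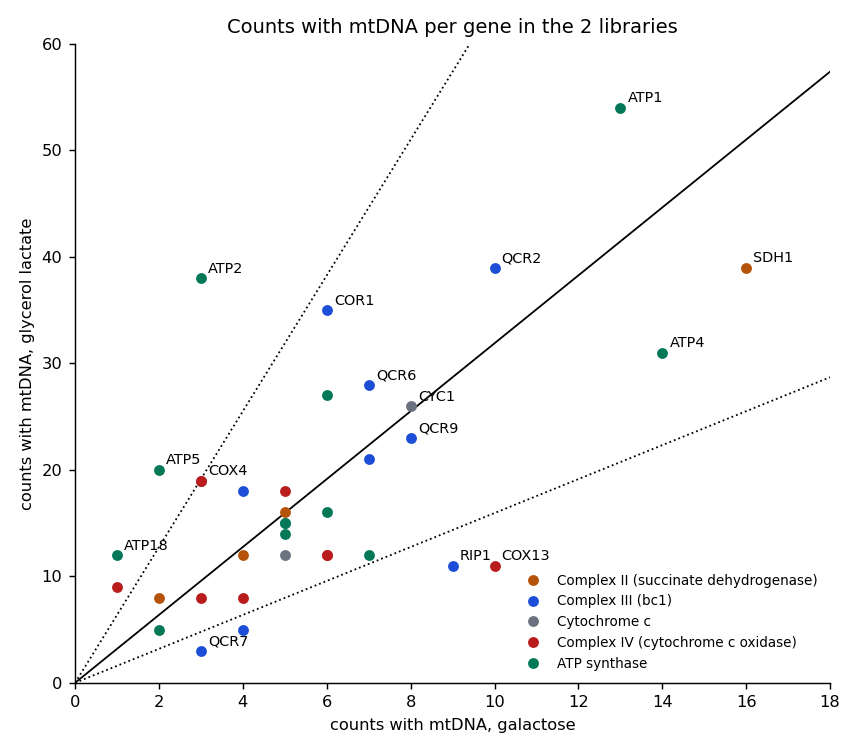
Counts with mtDNA in galactose (x axis) and in glycerol lactate (y axis) for each of the 36 genes, with 1 point per gene coloured by complex and some genes labelled. The solid line is the ratio of 3.19 of all other nuclear fragments, and the dotted lines are 2 times above and below it. ATP2, with 38 and 3 counts in glycerol lactate and galactose, stands above the upper dotted line, as do ATP5, ATP18 and COX6. COX13 and RIP1 stand below the lower one, as do QCR7 and QCR10. ATP18, COX6, QCR7 and QCR10 have fewer than 20 counts in both libraries together.

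Individual Mito-nDNA pairs of these genes were mostly seen once. In glycerol lactate the members formed 583 pairs with 120 of the 171 mtDNA fragments, and 503 of these pairs had 1 count, 73 had 2 and 7 had 3 or more. In galactose there were 194 pairs with 92 mtDNA fragments, of which 181 had 1 count, 12 had 2 and 1 had 3. At the cut-off of 3 counts, below which the study treats a pair as noise, 7 of the 84 fragments had a Mito-nDNA pair in glycerol lactate, against 8.36% of all nuclear fragments, and 8.29 fragments were given by the length classes. In galactose 1 fragment had such a pair, against 0.552%, and the length classes gave 0.63. The number of members above the cut-off was thus close to that of nuclear fragments of like length in both libraries.

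Each of the 8 pairs joined a different gene. In glycerol lactate COX4 had 3 counts with the COB fragment at mtDNA 43130 to 43983. QCR8, a membrane subunit of the bc1 complex, had 3 counts with the COX1 fragment at 17290 to 24261, which carries several intron-encoded genes of COX1. QCR9 had 3 counts with the COX2 fragment at 73215 to 75635. COX5A had 3 counts with a fragment of VAR1, the mitochondrially encoded ribosomal protein, at 49117 to 50115. None of these 4 joined a gene to an mtDNA gene of its own complex. The other 3 mtDNA partners carried no named gene. ATP2 had 4 counts with 941 to 2099, the largest of the 7, while SDH1 and SDH3, the cytochrome b subunit of complex II, had 3 counts each with fragments between ATP6 and OLI1, at 31076 to 32451 and 34180 to 34291. In galactose CYT1 had 3 counts with the same COX1 fragment that QCR8 joined. The QCR8 and SDH1 pairs had 1 count each in galactose, and the other 6 pairs had none in the other library.

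Pairs found in both libraries were few. Of the 583 pairs of glycerol lactate and the 194 of galactose, 20 were shared, or 3.43% and 10.3% of the lists. For all other nuclear fragments the shares were 2.76% and 8.17%. QCR9 shared its pairs with the large COX1 fragment and with the SCEI fragment at 60563 to 62559, SCEI being the gene of the omega homing endonuclease. SDH1 shared 3 pairs and QCR2, QCR8 and QCR10 shared 2 each.

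Complexes III and IV and the ATP synthase have subunits from both genomes, so it was asked how often their nuclear genes were joined to the mtDNA genes of the same complex. Cytochrome c oxidase genes had 20 of 116 counts on fragments with COX1, COX2 or COX3 in glycerol lactate, or 17.2% (10.9 to 25.4), and 9 of 41 in galactose, or 22.0% (10.6 to 37.6). The other nuclear fragments had 12.1% and 16.7% of their mtDNA counts there. Genes of the bc1 complex had 7.65% (4.25 to 12.5) and 6.90% (1.91 to 16.7) of their counts on COB fragments, against 6.48% and 8.13%. Genes of the ATP synthase had 3 of 259 and 1 of 69 counts on fragments with ATP6, ATP8 or OLI1, or 1.16% (0.24 to 3.35) and 1.45% (0.04 to 7.81), against 2.79% and 3.28%. Summed over the 3 complexes, the shares were 6.63% (4.71 to 9.02) and 8.33% (4.63 to 13.6), against 5.94% and 8.23% for other nuclear fragments. Each of these intervals includes the share of the other nuclear fragments.

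The mtDNA partners of the members were set against those of the other nuclear fragments in 8 groups of mtDNA fragments. Fragments with none of the listed protein-coding genes, 149 of the 171, took 70.2% (66.6 to 73.6) of the members' counts in glycerol lactate, against 74.5%, and 64.4% (57.5 to 70.9) in galactose, against 67.3%. The 6 COX1 fragments took 9.84% (7.69 to 12.3), against 9.16%, and 16.8% (12.0 to 22.6), against 13.1%. The COX2 fragment took 21 counts in glycerol lactate, 3.13% (1.95 to 4.74) against 1.70%, and 5 in galactose, 2.40% (0.79 to 5.52) against 2.22%. The SCEI fragment had 22 counts in glycerol lactate, 3.28% (2.07 to 4.92) against 1.98%, and 6 in galactose, 2.88% (1.07 to 6.17) against 2.59%. Of the 16 shares, the interval excluded the share of the other fragments for 3, all in glycerol lactate, namely those of COX2, SCEI and the fragments without a listed gene.

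With fragments of other nuclear chromosomes the members had 2943 counts in glycerol lactate and 5040 in galactose, or 1.14 (1.10 to 1.18) and 1.07 (1.04 to 1.10) times their length classes. With all mapped sequences these values were below 1, at 0.50 and 0.53. They were 0.13 and 0.18 without the 2 member fragments that carry long terminal repeats of retrotransposons, both beside ATP1. The length classes kept the counts of repeats. Per kilobase the order of the uniquely mapped counts was the opposite here too. The members had 28.0 against 30.1 for all other fragments in glycerol lactate, and 48.0 against 60.5 in galactose. In each medium 27 of 36 genes were above their length class, against 56.0% and 57.0% of all genes. Cytochrome c stood highest of the groups at 1.42 (1.24 to 1.62) and 1.21 (1.08 to 1.34), followed by the bc1 complex at 1.26 (1.17 to 1.35) and 1.14 (1.08 to 1.20). Cytochrome c oxidase was at 1.17 (1.08 to 1.27) and 1.09 (1.01 to 1.17). Succinate dehydrogenase and the ATP synthase stayed at the level of their length classes. The former was at 1.03 (0.91 to 1.16) and 1.06 (0.97 to 1.16), and the latter at 1.03 (0.97 to 1.10) and 0.99 (0.95 to 1.04). QCR6 was the highest gene in both media, at 2.03 (1.68 to 2.44) from 117 counts and 1.45 (1.26 to 1.66) from 206. It is 1 of 5 member genes within 50 kb of a chromosome end. Together with ATP18 at 1.77, QCR9 at 1.71 and COX5B at 1.57 it made up the 4 members at 1.5 or more in glycerol lactate, against 4.84% of all genes. No member reached 1.5 in galactose, against 1.81%, and none was at or below 1 divided by 1.5 in either medium, against 3.34% and 3.64%. The counting interval excluded 1 for 11 members in glycerol lactate, against 30.3%, and for 12 in galactose, against 41.2%. ATP1 was the lowest gene in glycerol lactate at 0.74 (0.63 to 0.86), and its 2 outermost neighbour fragments carry these repeats. The gene order was shared between the libraries more than for mtDNA, with a rank correlation of 0.46 over the 36 genes and 0.51 over all genes. Within glycerol lactate the mtDNA and the between-chromosome values had a rank correlation of 0.37 over the members, against 0.40 over all genes. Within galactose it was 0.03, against 0.19. Both values come from the same fragments and library.

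**Figure D3:**
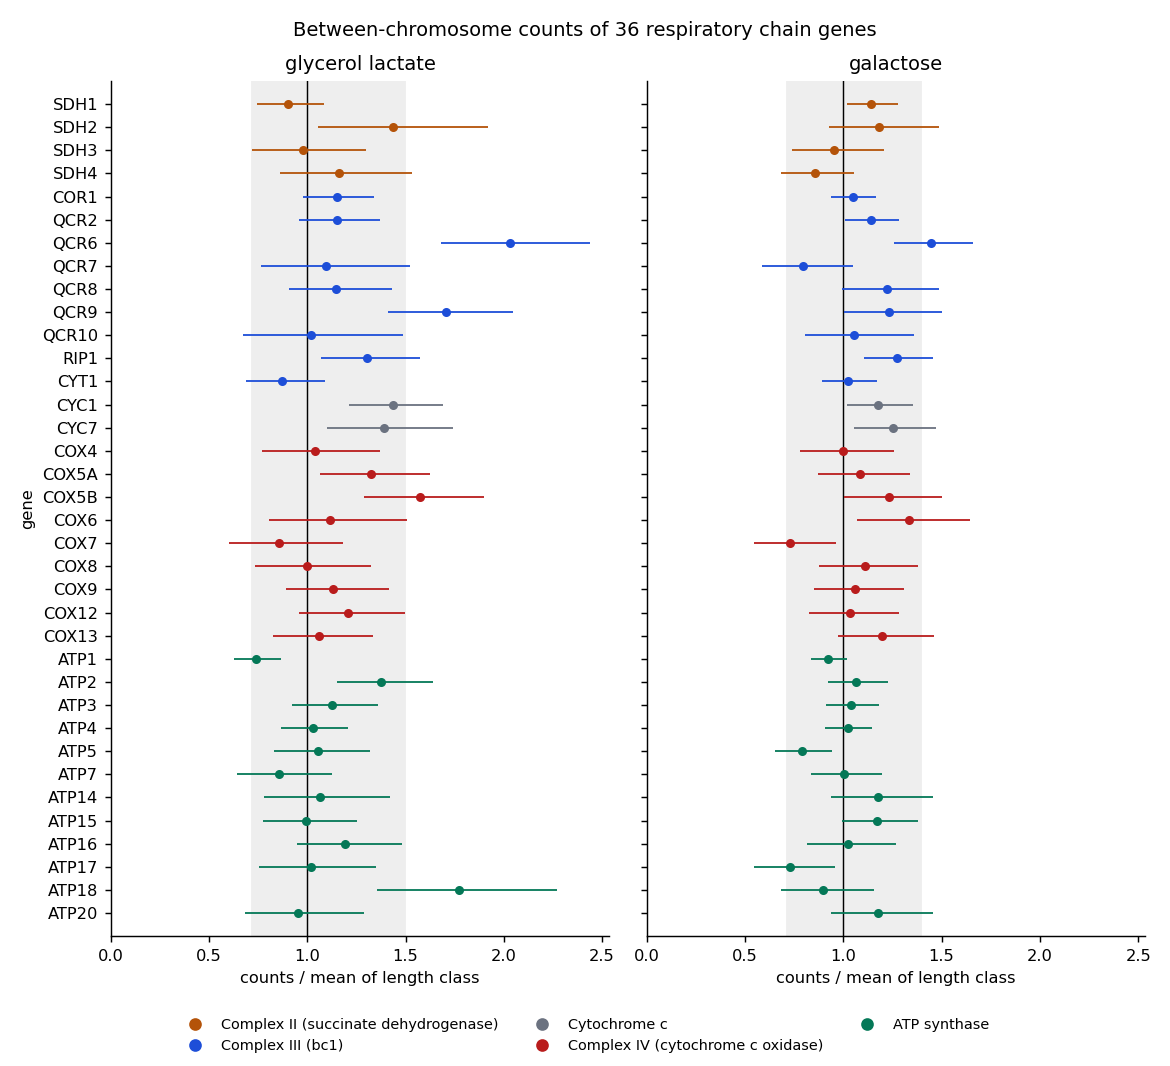
Between-chromosome counts of each of the 36 genes (rows, coloured by complex), divided by the mean of nuclear fragments of the same length class (x axis, ratio without unit), in glycerol lactate (left) and galactose (right). Bars are 95% Poisson counting intervals and the grey band holds the central 90% of 4646 nuclear genes. QCR6 stands highest in both media, at 2.03 and 1.45, outside the grey band of either panel.

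At 3 or more counts, 15 of the 84 fragments had a between-chromosome pair in glycerol lactate, against 19.7% of all nuclear fragments, and 16 in galactose, against 14.1%. The highest counts were 4, reached by SDH4 with a fragment of TOP2 (DNA topoisomerase II) on chromosome XIV and by QCR9 with the fragment of NTO1 and SRO7 on chromosome XVI. All others were tied at 3 counts. Among those of galactose, named after their values were seen, were ATP1 with NDE1, the external NADH dehydrogenase, and a fragment beside CYC1 with JEN1, the lactate permease. Their counts do not set them apart. At the same 3 counts were COR1 with GRX3, CYT1 with SCT1, ATP2 with ERB1, COX7 with MDN1 and ATP14 with RGS2, among others. All but 1 of the pairs of 3 or more counts had no count in the other library. The exception was a repeat-bearing fragment beside ATP1 with CTR3, at 3 counts in galactose and 1 in glycerol lactate.

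Few counts joined the members to each other. Between members on different chromosomes there were 10 counts in 8 pairs in glycerol lactate, where the fragments' own between-chromosome totals gave 11.7, a ratio of 0.86 (0.41 to 1.58). In galactose there were 11 counts in 11 pairs, where 16.8 were given, a ratio of 0.66 (0.33 to 1.17). The ratios were 0.92 and 0.75 with all mapped sequences, but above 1, at 5.73 and 3.57, without the 2 repeat-bearing fragments beside ATP1. These fragments were left out of the members only. The background totals kept the counts of repeats, so the last 2 ratios do not measure contact among members alone. Those 2 ratios rest on 15 and 18 counts. The CYC1 and CYC7 pair, from reads matching more than 1 place, gave 5 of them in each medium. Among uniquely mapped sequences, genes of the same complex had 3 counts in each medium, against 2.69 and 3.99 given by their totals. A count of 2 was the highest there, for QCR7 and for COX5A, each with a fragment beside ATP4. No pair of fragments was seen in both libraries. At the level of genes, RIP1 with SDH1 and SDH1 with QCR2 each had 1 count in both. Among 42 pairs of member genes on the same chromosome, the SDH1 and SDH3 fragments, 6.73 kb apart on chromosome XI, had 1 count in glycerol lactate and 4 in galactose. COX4 and COX13, whose fragments are 1.33 kb apart, had none in either library.

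**Figure D4:**
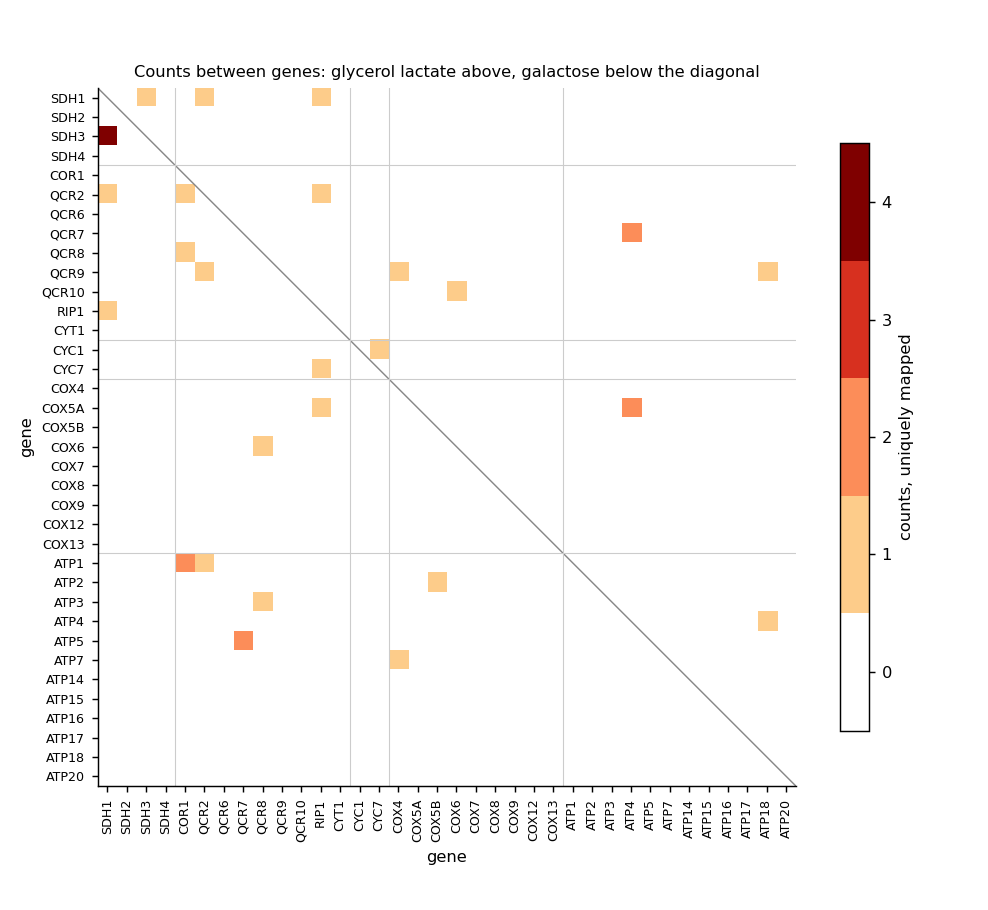
Counts between fragments of different member genes, with the 36 genes on both axes grouped by complex, glycerol lactate above the diagonal and galactose below it, from uniquely mapped sequences. Colour gives the summed count from 0 to 4. Most cells are empty, and the highest, 4 counts in galactose, is that of SDH1 with SDH3 on the same chromosome.

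Within their own chromosomes, leaving out adjacent fragments, which cannot be told from an uncut site, the members had 3759 counts in glycerol lactate and 6384 in galactose, or 1.37 (1.33 to 1.42) and 1.08 (1.05 to 1.11) times their length classes. With all mapped sequences these values were below 1, at 0.61 and 0.68. Genes cut into several fragments and genes in 1 fragment differed. The 20 genes in 1 fragment had 0.65 times the length-class level in glycerol lactate and 0.99 in galactose, and the 16 others 1.58 and 1.11. In glycerol lactate 63.3% of the members' within-chromosome counts joined a fragment to the next but one, against 59.8% for other nuclear fragments, and in galactose 19.9%, against 16.0%. RIP1 stood highest in both media, at 3.49 and 1.95, and ATP7, the d subunit of the stator, lowest in glycerol lactate at 0.21. In that library 13 of 36 genes were above 1, against 28.6% of all genes, and 20 of 36 in galactose, against 51.3%. Values of at least 1.5 were found for 7 members in glycerol lactate, against 19.4%, and for 2 in galactose, against 4.95%. Values at or below 1 divided by 1.5 were found for 15, against 59.3%, and for 1, against 5.38%. The counting interval excluded 1 for 24 members, against 88.9% of all genes, and for 16, against 47.5%, so for most genes of glycerol lactate this interval is narrower than the spread among genes. Counts over more than 20 kb were at 1.22 (1.11 to 1.34) in glycerol lactate and 1.05 (1.01 to 1.10) in galactose, and there the genes in 1 fragment were at 1.44 and 1.16.

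**Figure D5:**
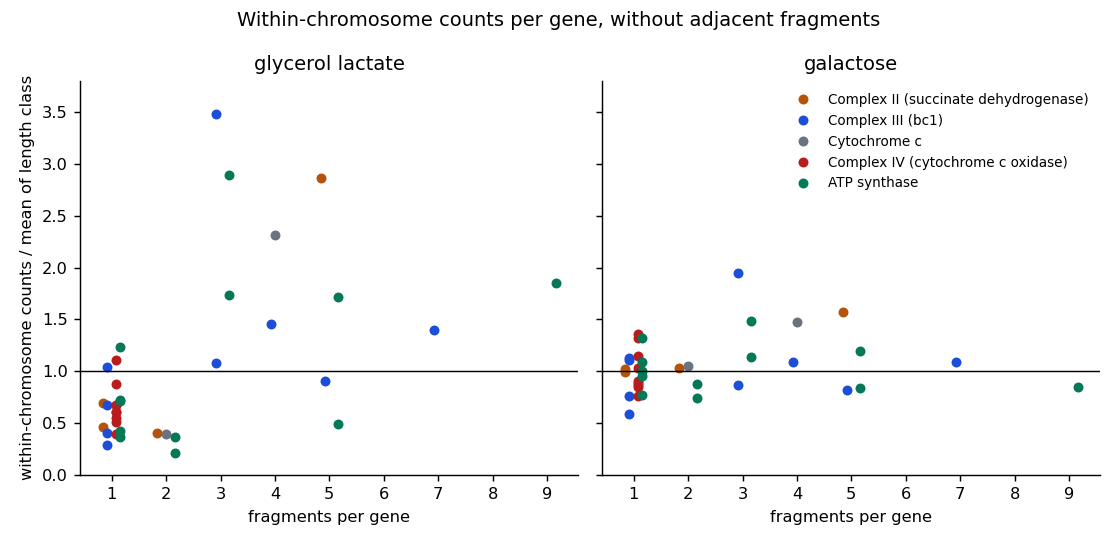
Within-chromosome counts without adjacent fragments, divided by the mean of the length class (y axis, ratio without unit), against the number of MspI fragments per gene (x axis) for the 36 genes, coloured by complex, in glycerol lactate (left) and galactose (right). The line marks 1. In glycerol lactate genes with 1 or 2 fragments are mostly below 1 and RIP1, with 3 fragments, reaches 3.49.

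Other nuclear genes of the pathway were read in the same way, namely 62 genes for assembly factors, translational activators, NADH dehydrogenases, ubiquinone synthesis and transcription factors. For counts with mtDNA 32 of the 62 (51.6%) were above their length class in glycerol lactate, against 53.6% of all genes. In galactose 37 (59.7%) were, against 51.5%. Their medians were 1.01 and 1.19, where the 36 structural genes had 1.16 and 1.28. The 62 are not all separate from the members, since CBS1 is read from the COX9 fragment, at 1.01 and 1.56. Values of at least 1.5 were reached by 4 of them (6.45%) in glycerol lactate, against 11.1% of all genes, and by 16 (25.8%) in galactose, against 15.9%. Values at or below 1 divided by 1.5 were found for 8 (12.9%) in each medium, against 10.7% and 20.0%. HAP4, the carbon-regulated activator subunit of respiratory gene transcription, was highest in glycerol lactate at 1.82, from 94 counts over 12 fragments, and was at 1.55 in galactose. HAP3, another subunit of that activator, was among the lowest in glycerol lactate at 0.44, from 3 counts. By list, the values of summed counts in glycerol lactate ran from 0.93 (0.80 to 1.07) for ATP synthase assembly and regulation to 1.25 (1.09 to 1.43) for the transcription factors. HAP4 gave 94 of the 215 counts of the transcription factors, of which 2 of 6 were above their length class, with a median of 0.92. In galactose the lists ran from 1.02 (0.81 to 1.27) for NADH dehydrogenases and ubiquinone synthesis to 1.34 (1.07 to 1.66) for assembly of complex III and cytochrome c. ATP synthase assembly and regulation was there above its length class, at 1.31 (1.04 to 1.64).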

How the data were processed

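Values are counts of MspI fragment pairs as deposited, without normalization. The authors placed paired-end reads on S288C reference sequences with SOAP without mismatches, assembled pairs with Topography (version 1.19) and combined 2 biological replicates per medium. The tables of uniquely mapped sequences were used throughout, and those of all mapped sequences as an alternative. Each pair, listed in both orders, was counted once. Positions are given from 1 in the S288C release of the tables.

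Expected counts are means of non-member nuclear fragments outside the rDNA in 20 length classes of equal size. Intervals are exact 95% Poisson or binomial intervals, which treat reads as independent molecules. Expected counts among members are products of between-chromosome totals. Gene symbols were matched to RefSeq (assembly R64), which gave 4646 nuclear genes as background. Python 3.11.15, numpy 2.4.6, pandas 2.3.3 and scipy 1.17.1 were used, and the procedures were tested on simulated data.

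Members, complexes and lists were chosen with earlier results of these data known. Genes described in depth are, per complex, those with the highest and lowest mtDNA value in glycerol lactate, those with an mtDNA pair of 3 or more counts, those in the highest between-chromosome pairs, and the paralogs. Other members given with their counts, among them QCR6, COX13, RIP1, COR1, ATP5 and ATP18, and HAP4 and HAP3 were chosen after their values were seen. The fold limits of 1.5 and 2 and the minimum of 20 counts were chosen with values in view. No sequence of the members is printed, since none was used here.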

Additional observations from a re-analysis of the deposited data

Results flagged for a closer look

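The tables of all mapped sequences are not used in the main comparisons. Fragments of CYC1 and CYC7 formed the only between-chromosome fragment pair of 2 member genes with 4 or more counts there and none when uniquely mapped. Another CYC7 fragment, at chromosome V 78535 to 79697, had 1 uniquely mapped count with the same CYC1 fragment in glycerol lactate. The CYC7 fragment at chromosome V 79698 to 80323 and the CYC1 fragment at chromosome X 526345 to 530701 were joined by 5 counts in glycerol lactate and by 5 in galactose. Such pairs of a member with another nuclear fragment numbered 197 and 168, with up to 1177 and 1713 counts, the largest at a repeat-bearing fragment beside ATP1. The uniquely mapped tables leave out reads that match more than 1 place, so the 0 found there follows from that filter and is no measured absence. The 5 counts come from such reads, whose place is not settled, and are no measured contact.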

How the results depend on the processing

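The 13 values were recomputed under 71 listed alternatives and 23 added after the data were seen, and 70 of the 94 stayed within the counting interval of the value reported, or within 1.5 times a count. With all mapped sequences the counts over the length class fell below 1 in glycerol lactate (mtDNA 0.95, between chromosomes 0.50, within chromosomes 0.61) and in galactose (0.69, 0.53 and 0.68). Without the 2 member fragments with long terminal repeats, both beside ATP1, these tables gave 0.95 for mtDNA and 0.13 between chromosomes in glycerol lactate. In galactose they gave 0.70 and 0.18. Counts among members were then at 5.73 and 3.57. The length classes and totals of these tables contain the counts of repeats. With members and background limited to fragments with at least 80% of their mapped counts unique (78 of the 84, and 12005 nuclear fragments), the within-chromosome values were 1.31 and 1.04. Those for mtDNA were 1.18 and 1.09, and those between chromosomes 1.14 and 1.04, all within the intervals of the values reported. The mtDNA value of galactose rested on 187 counts there and was given no interval of its own. The within-chromosome values also moved with distinct pairs (1.16 and 1.02), in glycerol lactate without the highest fragment (1.30), and in galactose with the background limited to fragments seen in both libraries (1.05). At a cut-off of 2 counts 53 and 10 fragments had a Mito-nDNA pair, and at 4 counts 1 and 0. The ratio of the mtDNA counts of the libraries was 2.34 when scaled by library totals and 5.52 when scaled by the between-chromosome counts of the same fragments. On the latter scale the members lay below the other nuclear fragments. No paired analysis was possible because each medium has 1 library of combined replicates, and no replicate could be left out. Depth limits most genes to fewer than 40 counts with mtDNA in glycerol lactate and to 16 or fewer in galactose.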
